A study of Homo sapiens with 2 samples.

Results

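DNA methylation writers, erasers and readers are the proteins that place a methyl group on cytosine in CpG dinucleotides, remove it, or bind to it. The genes described here were chosen by symbol, as DNMT1, DNMT3A, DNMT3B, UHRF1, TET1, TET2, TET3, MBD2 and TDG. Of these 9 genes, 8 were matched by identifier to rows of the tables, out of 57736 genes in all. UHRF1 could not be matched by identifier and was not analysed here. Their transcripts were measured by RNA-Seq of poly(A)+ RNA in HEK293T cells, a line made from human embryonic kidney cells that expresses the SV40 large T antigen. The cells are labelled wild type, carried no treatment, and were grown in DMEM with FBS. Both samples belong to this 1 group, as replicate 1 and replicate 2, so the data describe levels in 1 state of 1 cell line and no condition was compared with another. Whether the replicates came from separate cultures is not given by the labels, so the spread between them may be technical. In bulk RNA, fewer cells with a transcript and less transcript per cell cannot be told apart.

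In mammalian cells DNMT1 copies methylation onto the new strand after replication, and DNMT3A and DNMT3B set methylation on unmethylated DNA. The TET enzymes oxidise methylcytosine stepwise, and TDG, a thymine DNA glycosylase, cuts out the most oxidised forms so that base excision repair restores cytosine. MBD2 binds methylated CpG and recruits the NuRD complex, which deacetylates histones and remodels nucleosomes.

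Replicate 1 held 10593491 estimated counts and replicate 2 held 10104118. An estimated count is the number of reads of a gene after reads that match more than 1 gene have been divided between them. TPM corrects the count for transcript length and has the same total in each library, and it is the scale on which genes are compared below. The labelled tissue, kidney, was checked with 13 markers of kidney tissue. Of these, 2 had a TPM of 1 or more in each replicate, LRP2 with a mean TPM of 9.12 and PAX2 with 3.40, and UMOD, AQP2, SLC12A3 and SLC34A1 were among those with no counts. Of 7 markers of leukocytes, endothelium, fibroblasts and epithelium, 6 had a row. PTPRC had 1 count in each replicate and CDH5 had none, while COL1A1, CDH1 and EPCAM had a TPM of 1 or more in each replicate, with a mean TPM of 8.89, 2.72 and 1.26. COL3A1 had a TPM of 0.95 in replicate 1 and 1.63 in replicate 2.

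All 8 genes were detected, that is, had a TPM of 1 or more in each replicate. The same was true of 27.7% of all genes and 63.7% of protein-coding genes. The levels spanned from TET2, with a mean TPM of 8.01, to DNMT1, with a mean TPM of 273. The median over the 8 genes was 17.6 TPM, and the median over the 12345 detected protein-coding genes was 21.2 TPM. DNMT1 stood above 97.2% of the detected protein-coding genes, TDG above 84.2%, MBD2 above 72.7% and DNMT3B above 50.8%. TET1, TET3 and DNMT3A stood above 37.0%, 35.4% and 35.3% of them, and TET2 above 25.01%.

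**Figure D1:**
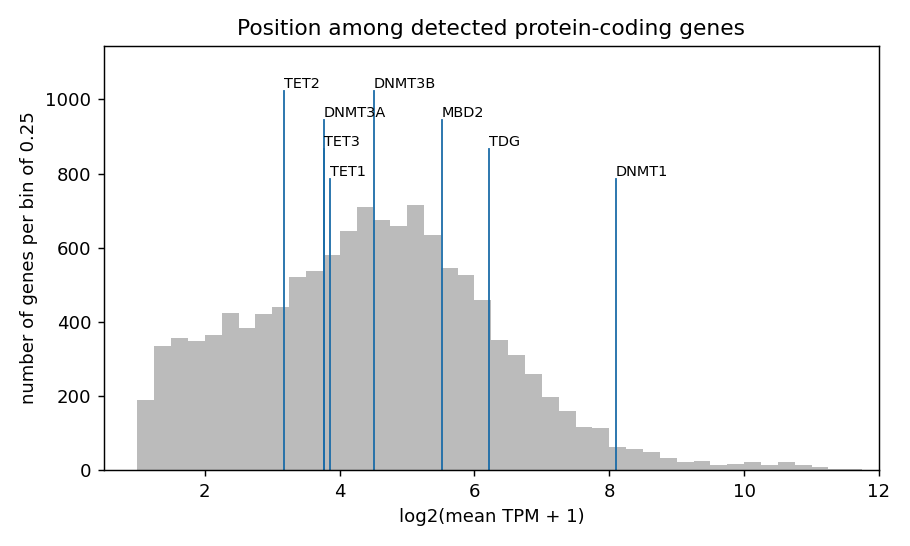
Histogram of log2(mean TPM + 1) of the 12345 detected protein-coding genes (horizontal axis) with the number of genes per bin (vertical axis), and a vertical line at each of the 8 genes. TET2 lies at the 25.01% point of the distribution, DNMT3B near its middle and DNMT1 in its upper tail; the heights of the lines carry no value.

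DNMT1, the maintenance methyltransferase, lies on chromosome 19 from 10244018 to 10341962 on the minus strand (GRCh37). It had a TPM of 310 in replicate 1 and 237 in replicate 2, with 4309 and 3898 estimated counts. Replicate 1 was thus higher, and the mean TPM was 273 ± 51.7 (SD, n = 2). Scaled by library depth alone, as CPM, DNMT1 had 407 CPM in replicate 1 (95% Wilson interval 395 to 419) and 386 in replicate 2 (374 to 398). These intervals hold counting error alone and take reads as independent, which PCR copies of a molecule are not. The coefficient of variation between the replicates was 18.9% in TPM and 3.75% in CPM, so most of the spread in TPM was not in the counts.

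DNMT3B, a de novo methyltransferase of early development, lies on chromosome 20 from 31350191 to 31397165 on the plus strand. Its TPM was 23.1 in replicate 1 and 20.3 in replicate 2, with 676 and 578 counts. DNMT3A, its relative and the main de novo enzyme of many differentiated tissues, lies on chromosome 2 from 25450724 to 25565459 on the minus strand. Its TPM was 13.4 in replicate 1 and 11.8 in replicate 2, with 338 and 284 counts, the fewest of the 8 genes. The values of these genes did not overlap, and DNMT3B exceeded DNMT3A 1.73-fold in replicate 1 and 1.71-fold in replicate 2 (1.72 ± 0.00858, SD, n = 2). This SD covers the replicates alone, and the ratio was 1.31 in posterior mean TPM, 2.02 in estimated counts and 4.42 per kb of the longest matched transcript. DNMT1 held 88.7% ± 0.998 of the summed TPM of the 3 methyltransferases (SD, n = 2).

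Sequences before an annotated start of DNMT1 and of DNMT3B are shown because CpG dinucleotides, in capitals, are the substrate of these enzymes. Each of these genes has a single start in the RefSeq promoter table (GRCh38.p14). Each sequence is the 250 bases before the annotated start, at chr19:10194954-10195203 on the minus strand for DNMT1 and at chr20:32779602-32779851 on the plus strand for DNMT3B.
DNMT1: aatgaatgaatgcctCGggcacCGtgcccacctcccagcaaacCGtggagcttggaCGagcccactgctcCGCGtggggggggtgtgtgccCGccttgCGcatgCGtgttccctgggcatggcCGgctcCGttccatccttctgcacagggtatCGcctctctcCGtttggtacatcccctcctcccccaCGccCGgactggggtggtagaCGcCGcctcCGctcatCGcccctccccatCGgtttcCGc
DNMT3B: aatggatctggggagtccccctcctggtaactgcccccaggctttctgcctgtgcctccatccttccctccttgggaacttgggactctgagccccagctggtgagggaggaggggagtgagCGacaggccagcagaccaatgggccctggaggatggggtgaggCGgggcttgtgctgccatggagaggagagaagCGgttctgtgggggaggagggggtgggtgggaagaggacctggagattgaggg
The DNMT1 sequence held 21 CG dinucleotides, more than 69.8% of the 35116 windows in the table, and the DNMT3B sequence held 3, more than 22.9% of them. The motif CG reads the same on both strands. Over the 17 windows of the 8 genes the number ranged from 3 to 37, and 12 of the windows lay above the median of 11, as did 48.5% of all windows. DNMT3A had more windows than any other of the 8 genes, and all of them lay above the median, with 12 to 33. Some of its windows overlap one another, so the same bases were counted more than once. The start used in HEK293T cells and its methylation were not measured here, so these counts describe the sequence alone. The gene positions given above are in another build, GRCh37. Whether each listed start lies at the 5' end of its gene or inside it was therefore not examined, and other starts may differ in CpG content.

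Of the erasers, TET1 lies on chromosome 10 from 70320094 to 70454244, TET2 on chromosome 4 from 106067032 to 106200973 and TET3 on chromosome 2 from 74212037 to 74335303, all on the plus strand. TET1, which carries a CXXC domain that binds unmethylated CpG, had a TPM of 13.2 in replicate 1 and 13.7 in replicate 2, with 911 and 910 counts. TET3, the TET enzyme known from the fertilised egg and from neurons, had a TPM of 13.1 and 12.3, with 807 and 794 counts. TET2, best known as a tumour suppressor of blood cells, had a TPM of 7.50 and 8.51, with 525 and 556 counts. The values of TET2 lay below those of both other TET genes in each replicate. In shares of the summed TPM of the 3 enzymes, TET1 held 39.4% ± 0.378, TET3 37.2% ± 2.09 and TET2 23.4% ± 1.71 (SD, n = 2).

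TDG, on chromosome 12 from 104359600 to 104382652 on the plus strand, was the second most abundant of the 8 genes. Its TPM was 72.2 in replicate 1 and 74.1 in replicate 2, with 1061 and 1122 counts. The ratio of TDG to the 3 TET enzymes together was 2.14 in each replicate (2.14 ± 0.00415, SD, n = 2). This SD covers the replicates alone. In estimated counts divided by those of TET1, TDG was 1.20, TET3 0.879 and TET2 0.594, so the TET enzymes together exceeded TDG. Per kb of the longest matched transcript these values were 3.62, 0.701 and 0.561, and TDG exceeded the TET enzymes together. MBD2, the reader, lies on chromosome 18 from 51677976 to 51751039 on the minus strand and had a TPM of 46.9 in replicate 1 and 42.8 in replicate 2, with 384 and 342 counts. Its ratio to TDG was 0.650 in replicate 1 and 0.578 in replicate 2, with a mean of 0.333 in estimated counts and 0.210 per kb of the longest matched transcript. The writers DNMT1, DNMT3A and DNMT3B summed to 346 TPM in replicate 1 and 269 in replicate 2, and the TET enzymes to 33.8 and 34.5. Writers thus exceeded TET enzymes 10.3-fold and 7.78-fold in TPM, but 2.24-fold in estimated counts and 4.37-fold per kb of the longest matched transcript. Without DNMT1 the ratio of DNMT3A and DNMT3B to the TET enzymes was 1.08 and 0.930.

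**Figure D2:**
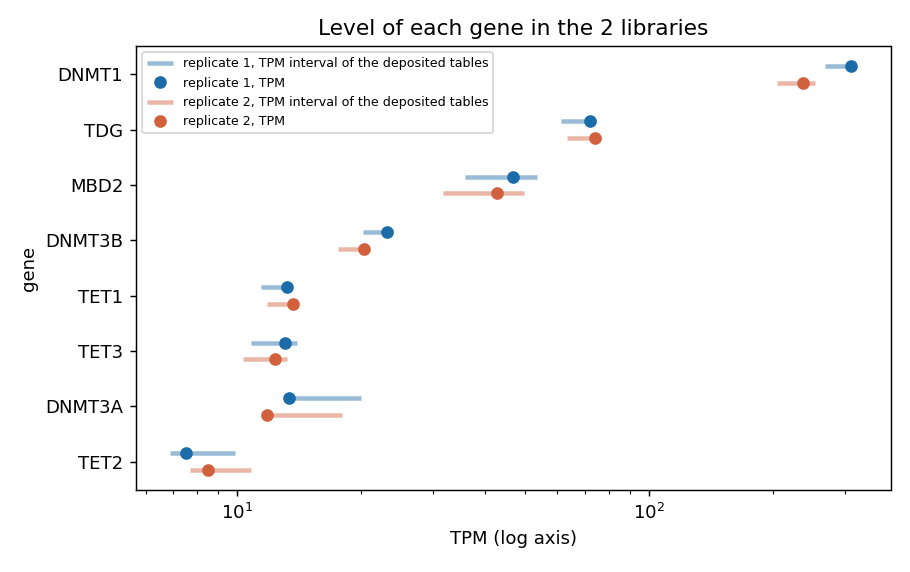
TPM of each gene (horizontal log axis) in replicate 1 (blue points) and replicate 2 (orange points), with bars for the interval of TPM deposited for each library. DNMT1 is the only one of the 8 genes above 100 TPM, its intervals of 267 to 319 and 205 to 253 do not overlap between the replicates, and TET1, TET3 and DNMT3A lie together between 11.8 and 13.7.

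In order of mean TPM the genes were DNMT1, TDG, MBD2, DNMT3B, TET1, TET3, DNMT3A and TET2. Of the 7 pairs of neighbours in this order, 1 had overlapping values in the replicates, TET3 and DNMT3A, whose means differed 1.01-fold. TET1 and TET3 differed 1.06-fold in their means, and although their replicate values did not overlap, the deposited TPM intervals of the pair overlapped in both libraries. For the other 5 pairs neither the replicate values nor the intervals overlapped, and the ratios of means ran from 1.58 to 3.74. Of these pairs, MBD2 and DNMT3B, and DNMT3A and TET2, had the opposite order in estimated counts and in CPM per kb of the longest matched transcript, a scale described below. A further pair, DNMT3B and TET1, had the opposite order in estimated counts but not on that scale. With 2 values against 2, an exact permutation test cannot give a p-value under 0.333, so no test was made between genes.

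The deposited interval of TPM lies around a posterior mean and not around the TPM itself. For 6 of the 8 genes the TPM lay inside the interval in both replicates, but the DNMT3A values of 13.4 and 11.8 TPM lay just below their intervals of 13.7 to 19.97 and 11.9 to 18.03. The posterior mean TPM of DNMT3A was 16.7 and 14.9, above TET1 with 12.2 and 12.6 and TET3 with 12.3 and 11.7. On that scale DNMT3A took the fifth place in the order, in front of TET1 and TET3, and DNMT3B exceeded it 1.31-fold. The TET1 values of 13.2 and 13.7 TPM lay just above their intervals of 11.4 to 13.04 and 11.8 to 13.5. The place of DNMT3A among the TET genes therefore depended on the estimate used.

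The libraries were compared gene by gene in their rounded counts by a two-sided exact binomial test, with Benjamini-Hochberg adjustment over all 17920 genes whose counts summed to 10 or more. It compares 1 library with 1 library and not conditions. Its p-values hold counting error alone and take reads as independent, which PCR copies are not, so a small difference in a gene with many counts can pass it. Of all genes tested, 3.88% differed at an adjusted p of 0.05, and none of the 8 genes did. Without adjustment, 2 of the 8 had a p under 0.05, as did 13.3% of all genes tested. TDG was one, with a log2 ratio of replicate 2 over replicate 1 of 0.16 (exact binomial p = 0.0108, adjusted p = 0.157, and 0.139 to 0.271 under the alternatives). DNMT1 was the other, with a log2 ratio of -0.07 (exact binomial p = 0.0369, adjusted p = 0.321, and 0.0907 to 0.502 under the alternatives). In counts scaled by library size the directions were mixed. DNMT1, MBD2, DNMT3B and DNMT3A were higher in replicate 1, and TDG, TET1, TET3 and TET2 in replicate 2. Unscaled, the counts of TET1 and TET3 were slightly higher in replicate 1. The adjusted p of the other 6 genes ran from 0.432 for TET2 to 0.866 for TET3.

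The TPM difference between the libraries was split into its parts, since TPM is the count divided by the effective length and by a scale common to all genes of a library. The length that the tables give for a gene is a mean over its transcripts, weighted by how abundant each was estimated to be, and so it moves when the estimated use of transcripts moves. For DNMT1 this length was 1913 nt in replicate 1 and 2341 nt in replicate 2, a rise of 22.4%. The log2 ratio of TPM, replicate 2 over replicate 1, was -0.39, of which -0.30 came from length, -0.14 from counts and 0.05 from the common scale. The absolute log2 ratio of lengths, 0.29, was larger than in 87.6% of the 11620 detected protein-coding genes with more than 1 transcript, whose median was 0.08. TET3 lengthened from 8337 to 9012 nt, and its length part of -0.11 exceeded its count part of -0.02. For TDG the parts were opposite, 0.08 from counts and -0.10 from length, and its TPM ratio was 0.04. In DNMT3A and DNMT3B the count parts of -0.25 and -0.23 exceeded length parts of 0.02 and -0.02. TET1 has 1 listed transcript, so its length of 9288 nt was the same in both libraries.

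**Figure D3:**
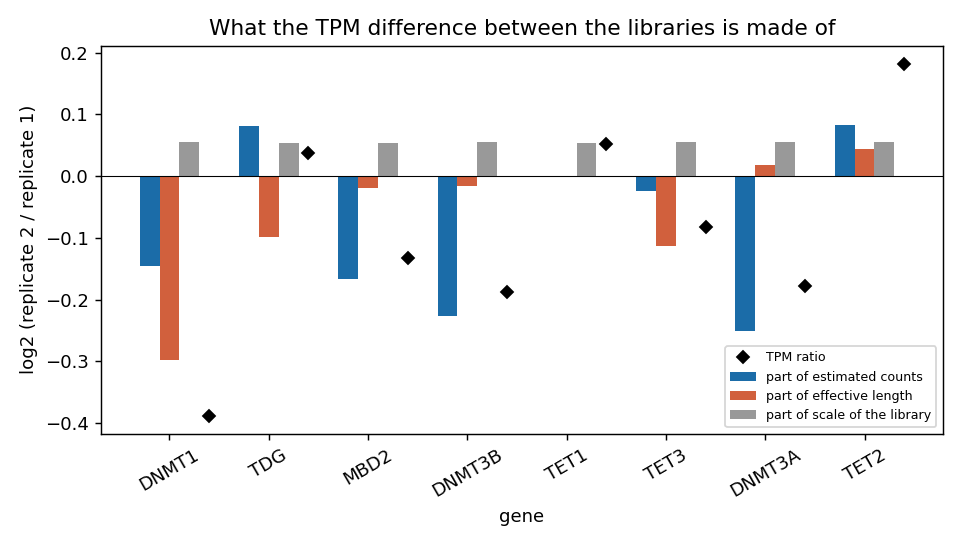
Log2 ratio of TPM, replicate 2 over replicate 1 (black diamonds, vertical axis), for each of the 8 genes, with bars for the parts due to estimated counts, effective length and the scale of the library, which add up to it. The largest bar is the length part of DNMT1 at -0.30, while the bar of the scale has nearly the same height for all 8 genes.

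The transcripts behind these lengths were counted. The tables list 29 transcripts for DNMT1, of which 28 were matched in GENCODE, from 231 to 5408 nt long. The weighted length of DNMT1 was 35.4% of the longest in replicate 1 and 43.3% in replicate 2. For MBD2, with 5 listed transcripts of 241 to 5064 nt, it was 1146 and 1161 nt, or 22.6% and 22.9% of the longest. For DNMT3A, with 15 listed transcripts, it was 36.1% and 35.7% of the longest of 9501 nt. DNMT3B and TET2 were near their longest transcripts, at 91.5% and 92.6% for DNMT3B and 92.8% and 90.0% for TET2. TDG lay between, at 63.4% and 67.8%, and so did TET3, at 69.1% and 74.7%. Lengths in the GENCODE release can differ from those of the annotation used for counting, as the 9612 nt of the TET1 transcript against 9288 nt shows. Reads per transcript were not analysed here, so the weighted length stands for the mixture of transcripts of a gene and not for any 1 of them.

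The short weighted lengths raise TPM for a given count, and the levels were therefore also set on a fixed length, CPM per kb of the longest matched transcript, a scale chosen after the data were seen. DNMT1 remained highest, with 75.2 CPM per kb in replicate 1 and 71.3 in replicate 2, and TDG followed with 31.5 and 34.9. MBD2 fell behind DNMT3B and TET1, with 7.16 and 6.68 against 14.7 and 13.2 for DNMT3B and 8.95 and 9.37 for TET1. DNMT3A was lowest with 3.36 and 2.96, below TET2 with 4.87 and 5.41. Against TET1, whose length was fixed, DNMT1 was 20.3-fold higher in TPM (± 4.36, SD, n = 2) and 8.01-fold higher per fixed length (± 0.561). DNMT3B against TET1 was 1.61-fold and 1.53-fold on these scales, so it hardly moved. On both scales DNMT1 was first, TDG next to it, DNMT3B above DNMT3A and TET1 above TET3 and TET2.

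**Figure D4:**
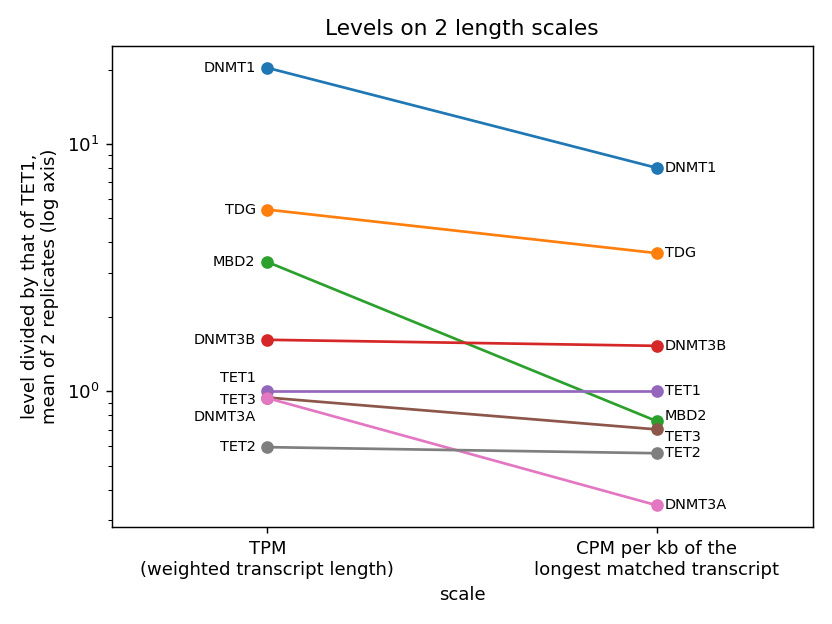
Level of each gene divided by that of TET1, mean of 2 replicates (vertical log axis), in TPM on the left and in CPM per kb of the longest matched transcript on the right. The lines of DNMT3B and TET2 run nearly level, while DNMT1, MBD2 and DNMT3A drop, to 8.01, 0.757 and 0.346.

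Reads that match more than 1 gene were examined next. Counts were whole, within 0.005 of a whole number, for 7 of the 8 genes, and the posterior SD, which describes how uncertain the sharing of reads was, was 0 counts in both replicates for MBD2, DNMT3B, TET1, TET3, DNMT3A and TET2. It was 0.42 counts for DNMT1 in replicate 1 and 0 in replicate 2, and 5.70 and 2.14 counts for TDG. The windows of 50 bases, the read length, were counted in the matched transcripts of each gene, and those that also occur in a transcript of another gene on either strand were found. None occurred elsewhere for DNMT3B, TET1 and MBD2. The share was 0.0247% for DNMT3A, 0.0421% for TET2, 1.38% for DNMT1, 2.76% for TET3 and 9.07% for TDG. The 162 shared windows of DNMT1 were spread over 146 other genes. Those of TET3 were all shared with ENSG00000235499, an overlapping lncRNA gene on the same strand, which had 13 and 15 counts with a posterior SD of 0.

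Most shared windows of TDG, 349 of 468, occur in TDGP1, a processed pseudogene, that is, a reverse-transcribed copy of the mRNA inserted elsewhere. TDGP1 lies on chromosome 12 from 25956232 to 25957460 on the plus strand (GRCh37). Over 1229 aligned bases it is 97.8% identical to TDG, with 27 differing bases and 1 gap base, and the longest identical run is 228 bases. The stretch of 120 coding bases in which the sequences differ most is shown because its 8 differing bases, in capitals, let reads be assigned to one or the other. The TDG bases lie within chr12:104379417-104380755, across an intron, and those of TDGP1 at chr12:25957231-25957350.
TDG: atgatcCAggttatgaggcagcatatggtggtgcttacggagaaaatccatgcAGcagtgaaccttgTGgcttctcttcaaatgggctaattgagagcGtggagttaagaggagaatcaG
TDGP1: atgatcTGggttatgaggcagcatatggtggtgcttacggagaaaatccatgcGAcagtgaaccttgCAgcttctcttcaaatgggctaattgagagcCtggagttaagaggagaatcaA
The first 120 bases of the longest identical run, at chr12:104370700-104370819 in TDG and chr12:25956259-25956378 in TDGP1, are the same in both, and a read within it fits either.
TDG and TDGP1: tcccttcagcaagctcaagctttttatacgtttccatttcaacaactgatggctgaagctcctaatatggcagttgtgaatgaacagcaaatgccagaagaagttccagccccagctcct
The estimated count of TDGP1 was 0 in both replicates, so none of the shared reads were counted for it. The posterior mean counts of TDGP1 were 6.77 and 2.02, with the same posterior SDs of 5.70 and 2.14 counts as TDG, against 1054 and 1120 posterior mean counts for TDG.

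Other genes that overlap the 8 genes had few counts. S1PR2 at the DNMT1 locus had 37 and 38 counts, COX20P1 in TET1 had 24.1 and 19.2, and SNORA37 in MBD2 had 1 in each replicate. TET2-AS1, on the strand opposite to TET2, had 1 and 2 counts. The sources used here do not give whether strand was used in counting, but none of the 50-base windows of the matched TET2 transcripts occurred in TET2-AS1 on either strand. MIR1301 in DNMT3A, MIR4322 in DNMT1 and AC078819.1 in TDG had no counts. The copies TET1P1 and DNMT3AP1 had 0 counts in replicate 1 and 1 in replicate 2.

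Genes known to work with the writers were read from a list of 9, and 8 of them were detected, or 88.9%, against 63.7% of protein-coding genes. PCNA, the replication clamp that holds DNMT1 at the fork, had a TPM of 222 in replicate 1 and 218 in replicate 2, below DNMT1 in both. The weighted length of DNMT1 was short, at 35.4% and 43.3% of its longest matched transcript, which raises its TPM. PCNA was not set on a fixed length, so whether this order holds there was not tested. USP7, a deubiquitinase that stabilises DNMT1, had 102 and 91.8, and HELLS, a chromatin remodeller needed for methylation of repeats, had 91.8 and 92.1. The lowest detected were ZBTB24, a zinc finger protein of the same pathway as HELLS, with a mean TPM of 13.4 ± 0.339, and TRDMT1, a DNMT relative that methylates tRNA, with 10.5 ± 2.08 (SD, n = 2). DNMT3L, the inactive partner that stimulates DNMT3A and DNMT3B in germ cells, had 0 counts in both replicates. A count of 0 allows up to 3 counts, equal to 0.283 CPM for replicate 1 and 0.297 CPM for replicate 2.

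Of 18 genes for active demethylation and base excision repair, 15 were detected. PARP1, a sensor of strand breaks, was highest with a TPM of 626 and 633, followed by APEX1, the endonuclease that cuts the abasic site left by TDG, with 200 and 201. UNG, the uracil glycosylase, had 87.4 and 96.7, above TDG in both replicates. Among the lowest were DPPA3, a maternal factor that protects against demethylation, with 0 and 1.12 counts, and GADD45G with 5 and 2 counts. PARP1 was the only gene of this list that passed the test between the libraries, at a log2 ratio of -0.06 (edgeR TMM-scaled sizes, exact binomial test, adjusted p = 0.00349, and 6.75e-06 to 0.00598 under the alternatives). Its scaled counts were thus lower in replicate 2, whereas its TPM was slightly higher there.

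All 13 other methyl-CpG readers and proteins with a methyl-CpG-binding fold were detected, with a median TPM of 32.1, and MBD2 lay above 10 of them in mean TPM. BAZ2A, the subunit of the nucleolar remodelling complex that silences rDNA, was highest with a TPM of 150 and 122. MBD3, the NuRD subunit that resembles MBD2 but does not bind methylated CpG well, had 120 and 106, and exceeded MBD2 in both replicates. The lowest were ZBTB38, ZBTB4 and SETDB2, with mean TPM values of 13.5 ± 0.651, 10.8 ± 0.120 and 5.42 ± 0.346 (SD, n = 2). The place of MBD2 depended on the length correction, as its weighted length was short. In estimated counts MBD2, with 384 and 342, lay below most of the 13 in both replicates. Among these was ZBTB4 with 466 and 456, while SETDB2 with 134 and 133 lay below MBD2. ZBTB38 passed the test between the libraries with 351 and 417 counts, a log2 ratio of 0.33 (exact binomial test, adjusted p = 0.0491), but in 4 of 5 alternatives the call was lost, with an adjusted p from 0.0466 to 0.113. All 13 subunits of NuRD were detected as well, with a median TPM of 149, and RBBP4, RBBP7 and HDAC2 were highest with mean TPM values of 382, 336 and 243. The lowest were CHD3, MTA3 and GATAD2B, at 51.9, 40.1 and 33.5. GATAD2B and MTA3 were thus the only 2 of the 13 below the 44.9 of MBD2 in mean TPM. In estimated counts both exceeded MBD2, GATAD2B with 1900 and 1750 and MTA3 with 464 and 419. CHD4, the remodelling ATPase, passed the test between the libraries at a log2 ratio of -0.11 (exact binomial test, adjusted p = 0.00150, and 3.42e-05 to 0.00257 under the alternatives).

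Germline genes that are known to be silenced by promoter methylation in somatic cells were read as a further list of 18. Of these, 1 was detected, or 5.56%, against 63.7% of protein-coding genes. It was SYCP3, a protein of the synaptonemal complex, with a TPM of 1.89 and 1.68. TEX14 had a TPM of 0.64 and 1.04 and MAGEB2 had 1.03 and 0.45, each past 1 in a single replicate. In both replicates 11 of the genes had 0 counts, namely DAZL, DDX4, SYCP1, MAEL, TDRD1, TEX101, MAGEA1, MAGEA4, CTAG1B, CTAG2 and BRDT. HORMAD1, PIWIL2 and SOHLH2 had 1 count in 1 replicate and 0 in the other. Methylation was not measured, so its part in these levels was not tested.

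**Figure D5:**
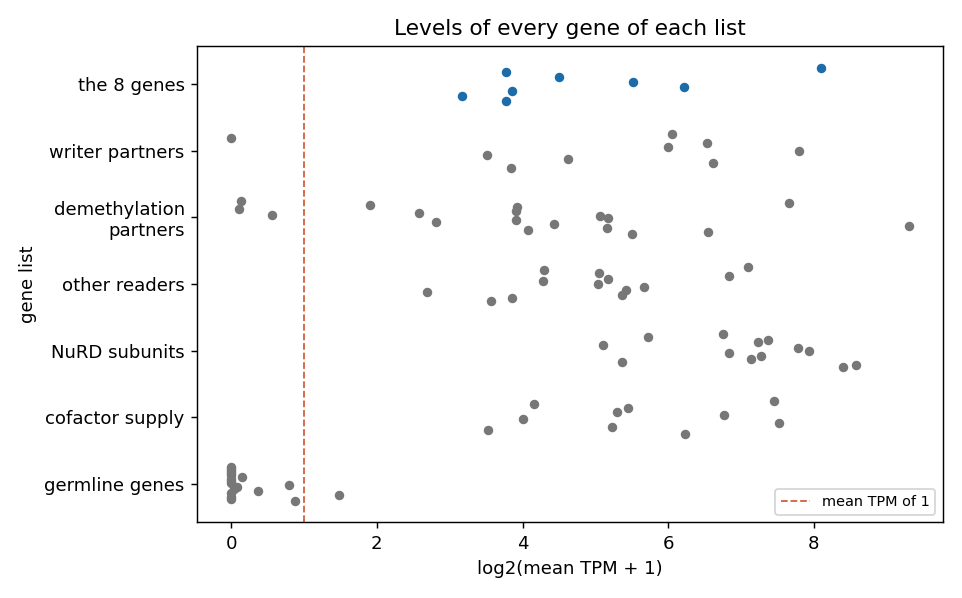
Log2(mean TPM + 1) of every gene with a row (horizontal axis) in each list (rows), with the 8 genes in blue and a dashed line at a mean TPM of 1. NuRD subunits, other readers and genes of cofactor supply all lie right of the line, and 1 of 18 germline genes does.

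Over the 6 lists of partner, reader, cofactor and germline genes, 61 different genes were tested between the libraries and 3 passed, against 3.88% of all genes tested. In counts scaled by library size, CHD4 and PARP1 were higher in replicate 1 and ZBTB38 in replicate 2. In TPM, PARP1 was slightly higher in replicate 2, with 633 against 626, and ZBTB38 was higher in replicate 1. In the table of the whole series, in which the authors pooled the reads of the replicates, DNMT1 stood at 274 TPM and TDG at 73.2, and the order of the 8 genes differed in no place from that of the mean TPM.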

How the data were processed

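Poly(A)+ RNA of HEK293T cells was sequenced in 2 libraries. Per the submitters' processing notes, Trimmomatic 0.36, STAR 2.6.1c, RSEM 1.3.1 and the GRCh37 build were used, whereas the study's methods name featureCounts for counting. The deposited columns carry the names that RSEM gives. Estimated counts (RSEM's expected counts), TPM and FPKM were deposited by the authors, as were the posterior SD of the count and the interval of TPM, which are scores whose confidence level the sources used here do not give. Depth was 10593491 and 10104118 estimated counts.

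Gene symbols and positions (GRCh37) were taken from GENCODE 44 lifted to that build, with 53460 of 57736 identifiers matched to the symbol of 1 gene. Gene models there can differ from those used for counting. The genes and lists were chosen with earlier results of these data known. The lists are given whole in counts, and the 3 highest, 3 lowest, those at 0 counts and those differing between the libraries were named, except some genes that are not reported here.

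Counts were rounded and compared by an exact binomial test (scipy 1.17.1) against TMM-scaled library sizes (edgeR 4.0.16, R 4.3.3). In data simulated with 200 genes changed 1.5-fold over 17973 genes, it recovered 165, with 8 unchanged genes called. Between the 2 replicates the same test called 696 of 17920 genes, so the simulation does not give its rate of false calls in these data. Ratios of counts used 0.5 added counts. TDG was aligned with TDGP1 by Biopython 1.88. Alternatives were other thresholds, units, normalizations, filters and pseudocounts, and leaving out each replicate.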

Additional observations from a re-analysis of the deposited data

How the results depend on the processing

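No paired analysis was possible because no second group was measured. All 8 genes stayed detected under every threshold and without either replicate, and none differed between the libraries under any normalization or filter, although DNMT1 has no value with whole counts only. Over all genes, 696 differed, and 71 of 8675 with whole counts only (within 0.005 of a whole number). The ratio of DNMT3B to DNMT3A was 1.31 in posterior mean TPM, 2.02 in estimated counts and 4.42 on the fixed length added after the data were seen, and the share of DNMT1 among the methyltransferases was 87.7%, 81.4% and 81.1% in the same settings. On the fixed length the share of TET3 was 31.0%. The ratio of MBD2 to TDG was 0.333 in estimated counts and 0.210 on the fixed length, and that of writers to TET enzymes was 2.24 and 4.37. Of neighbours in the order, 0 pairs overlapped in estimated counts and on the fixed length. Of the germline genes, 4 were detected with a TPM of at least 0.1, 0 with 5, 2 with 10 counts in both replicates and 2 without either replicate. Estimated counts lack a length correction by construction, and the other causes were not tested. The ratio of UHRF1 to DNMT1 was not run, since UHRF1 was not analysed here. Depth limits the low values most, as 1 estimated count in a gene of 1000 nt effective length is worth 0.134 TPM in replicate 1 and 0.139 in replicate 2.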

Other observations

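The genes that supply the cofactors of these enzymes were all detected, 10 of 10. MAT2A, which makes the methyl donor S-adenosylmethionine, had a TPM of 179 in replicate 1 and 187 in replicate 2, and AHCY, which removes the product S-adenosylhomocysteine, had 180 and 169. IDH3A, a subunit of the mitochondrial enzyme that makes alpha-ketoglutarate, the co-substrate of the TET enzymes, had 103 and 112. Among the lowest was D2HGDH, which clears a form of 2-hydroxyglutarate, at 16.9 ± 4.37 (mean TPM ± SD, n = 2). None of the 10 differed between the libraries at an adjusted p of 0.05 (exact binomial test).

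Counts and TPM of ZBTB38 moved in opposite directions, from 351 to 417 counts and from 14.0 to 13.1 TPM between replicate 1 and replicate 2. Those of PARP1 did so too, from 17186 to 15573 counts and from 626 to 633 TPM.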
